A study of Homo sapiens with 2 samples.

Results

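The 42 genes described here encode the receptors for glutamate and the voltage-gated calcium channels, and were followed in a pan-crotonyllysine (pan-Kcr) ChIP-seq peak list of T98G cells, an established human glioblastoma line. They comprised 24 glutamate receptor genes (4 AMPA, 5 kainate and 7 NMDA receptor subunits, 1 delta receptor and 7 metabotropic receptors) and 18 calcium channel genes (10 alpha1, 4 alpha2delta and 4 beta subunits), out of 20043 protein-coding genes of the reference gene table. A peak was counted for a gene when the list gave the gene's symbol as nearest gene, or when its annotation text named the gene's Ensembl ID. The second route matters for long genes, in whose introns a small RNA or pseudogene is often the nearest gene.

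The immunoprecipitated group was 1 ChIP library, from T98G cells given crotonate for 48 h, made with an antibody against crotonylated lysine on any protein. The group it was set against was 1 input library, chromatin of crotonate-treated T98G cells without immunoprecipitation. The deposited design text gives a crotonate dose of 10 µM. Both libraries carry the treatment, so the list holds no contrast between treated and untreated cells, and with 1 library a group no spread between replicates can be given and no test was made. The deposited list held 10041 peaks with their fold enrichment over background. Reads per library are not given in it, but fold and p-value together return the ChIP fragments stacked at each summit. None of the 10041 peaks had a q-value under 0.05, and every one had an unadjusted p-value under 0.05 (largest 0.000987). All intervals below are exact 95% Poisson or binomial intervals and cover counting error only.

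Glutamate is the main excitatory transmitter of the brain. Ionotropic receptors (AMPA, kainate and NMDA) open a cation channel when glutamate binds, whereas metabotropic receptors signal through G proteins. Voltage-gated calcium channels admit calcium on depolarisation; the alpha1 subunit forms the pore, and the alpha2delta and beta subunits carry it to the membrane and shape its gating. Glioma cells are known to release glutamate and to use calcium-permeable AMPA receptors. Lysine crotonylation of histones is an acylation made from crotonyl-CoA, to which crotonate is a precursor, and is known mainly from active promoters and enhancers.

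Promoter-class peaks, which the authors annotated within 3 kb of a transcription start, were assigned to GRIN1, GRIN2A, GRIN2B, GRIA4, CACNA1D, CACNA1G and CACNA1H. For GRIN2A, GRIN2B, GRIA4 and CACNA1D the reference promoter table (RefSeq, GRCh38.p14) holds the sequence before the start. It is shown here because the promoter-class peaks of these genes did not lie at these starts, as described below. Each line gives the 250 bases upstream of the start nearest to such a peak, 5′ to 3′ on the gene's strand, with CpG dinucleotides in capitals.
GRIN2A (chr16:10182068-10182317, minus strand): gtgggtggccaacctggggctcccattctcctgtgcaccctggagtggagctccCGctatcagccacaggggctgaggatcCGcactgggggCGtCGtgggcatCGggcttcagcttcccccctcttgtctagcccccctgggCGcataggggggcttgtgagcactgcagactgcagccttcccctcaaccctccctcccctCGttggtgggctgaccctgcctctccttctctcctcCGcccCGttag
GRIN2B (chr12:13980846-13981095, minus strand): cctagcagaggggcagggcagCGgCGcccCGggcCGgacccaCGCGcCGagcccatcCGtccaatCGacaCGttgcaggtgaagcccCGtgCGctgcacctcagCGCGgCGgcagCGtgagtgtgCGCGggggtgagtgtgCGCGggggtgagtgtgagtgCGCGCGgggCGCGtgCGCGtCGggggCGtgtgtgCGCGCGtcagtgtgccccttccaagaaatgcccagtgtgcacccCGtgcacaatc
GRIA4 (chr11:105610456-105610705, plus strand): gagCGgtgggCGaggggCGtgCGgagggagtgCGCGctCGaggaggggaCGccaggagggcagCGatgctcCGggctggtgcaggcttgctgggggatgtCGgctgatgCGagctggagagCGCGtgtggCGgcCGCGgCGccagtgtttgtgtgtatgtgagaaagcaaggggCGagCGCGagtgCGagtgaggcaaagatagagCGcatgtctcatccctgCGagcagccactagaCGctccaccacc
CACNA1D (chr3:53494361-53494610, plus strand): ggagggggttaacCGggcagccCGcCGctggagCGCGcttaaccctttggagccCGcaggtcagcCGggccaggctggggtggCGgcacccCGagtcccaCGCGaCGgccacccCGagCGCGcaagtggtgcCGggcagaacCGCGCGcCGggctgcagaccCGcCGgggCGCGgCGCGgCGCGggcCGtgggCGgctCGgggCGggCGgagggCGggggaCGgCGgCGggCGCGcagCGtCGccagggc
The CACNA1D stretch held 41 CpG dinucleotides at 81.6% G+C, that of GRIN2B 33 at 72.4%, that of GRIA4 25 at 67.6% and that of GRIN2A 9 at 66.8%. Over the 58 starts of the 34 glutamate receptor and calcium channel genes in the table, the median was 12.5 CpG (1 to 51), against 16 (0 to 59) over 22199 starts of all protein-coding genes.

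At least 1 pan-Kcr peak was assigned to 25 of the 42 genes (59.5%, interval 43.3 to 74.4%), while 19.4% of all protein-coding genes had one. These genes are long, however. Their median span was 243 kb (9.314 to 952 kb), and a long gene collects more peaks at an equal rate per base. From the shares of other genes in the same 6 classes of length, 19.9 of the 42 would carry a peak. The 25 genes held 57 peaks (interval 43.2 to 73.9) where 44.6 were expected from length, a ratio of 1.28 (0.969 to 1.66). This interval includes 1, so an excess over equally long genes was not detectable at this depth for the 42 genes as a whole. A promoter-class peak was assigned to 7 of the 42 (16.7%, interval 6.97 to 31.4%), with 4.26 expected from length and 5.99% of all protein-coding genes carrying one.

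The share with a peak went up with length in the receptor and channel genes as it did elsewhere. None of the 5 under 20 kb had a peak, against 8.17% of other genes. Of those between 200 and 500 kb it was 11 of 16, against 60.3% of other genes. All 7 over 500 kb had one, against 83.4%.

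**Figure D1:**
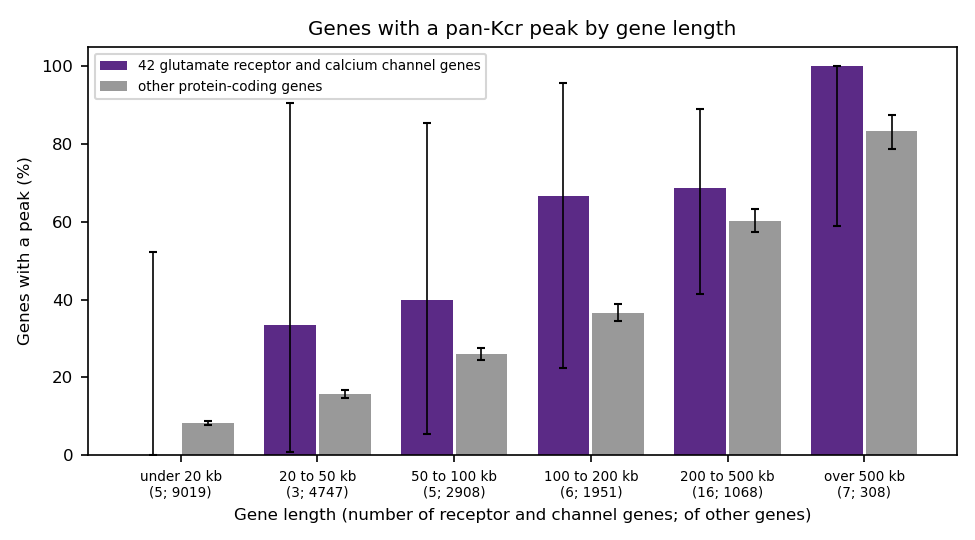
Share of genes with at least 1 pan-Kcr peak (%, vertical axis) in 6 classes of gene length (horizontal axis), for the 42 glutamate receptor and calcium channel genes and for all other protein-coding genes. Bars are shares and error bars exact 95% binomial intervals; the number of genes of both sets stands under each class. In 5 of the 6 classes the bar of the receptor and channel genes is higher, and in each of these the interval of those few genes contains the share of the other genes.

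Split by family, the peaks were unevenly spread. The 18 calcium channel genes held 31 peaks where 17.7 were expected from length, a ratio of 1.75 (1.19 to 2.49), and the 24 glutamate receptor genes held 26 where 26.9 were expected, a ratio of 0.967 (0.631 to 1.42). Per megabase of gene these were 6.37 peaks in the channel genes and 3.43 in the receptor genes. The calcium channel ratio lay above 1 beyond counting error, the glutamate receptor ratio did not, and the 2 intervals overlap, so the difference between the families is given as a description and was not tested. Without CACNA1E, the gene with most peaks, the calcium channel ratio was 1.52 (0.972 to 2.26), and with peaks of at least the median fold alone it was 1.35 (0.721 to 2.32). Both intervals include 1, so an excess of the channel genes was not detectable in either setting. Scaled by the peak rate of each gene's chromosome the ratio was 1.56 (1.06 to 2.22). Counted by genes, the families were alike. A peak was assigned to 10 of the 18 channel genes (55.6%, interval 30.8 to 78.5%), with 8.17 expected from length. For receptor genes it was 15 of 24 (62.5%, interval 40.6 to 81.2%), with 11.7 expected, against 19.4% of all protein-coding genes. The uneven spread thus lay in peaks per gene: 5 channel genes and 3 receptor genes held 3 or more.

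**Figure D2:**
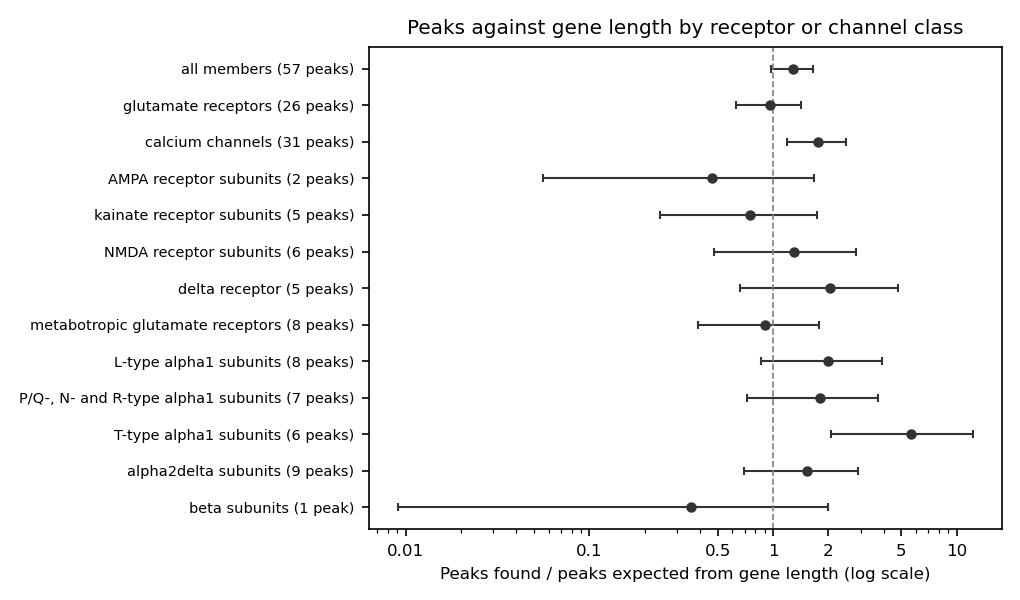
Ratio of peaks found to peaks expected from gene length (horizontal axis, log scale) for all 42 genes, both families and each receptor or channel class; points are ratios and bars exact 95% Poisson intervals. The intervals of the calcium channels (ratio 1.75) and of the T-type alpha1 subunits (ratio 5.65) lie above the dashed line at 1, and all others cross it.

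Among calcium channels the densest class was the T-type, the low-voltage-activated channels that open near the resting potential. CACNA1G, CACNA1H and CACNA1I, its 3 pore subunits, all had peaks although none is longer than 119 kb. Together they held 6 peaks where 1.06 were expected (ratio 5.65, interval 2.07 to 12.3), or 23.6 per megabase. These genes lie on chromosomes 17, 16 and 22, where peaks were 1.23, 1.27 and 1.70 times as frequent per megabase as in the whole list. With the expectation scaled by chromosome the ratio was 3.94 (1.45 to 8.58). The class was singled out among 10 after the values were seen. Of its 6 peaks, 4 stacked 3 or more fragments.
CACNA1H carried a peak of 4 fragments at 4.24-fold over exon 9 of 35 of the annotated transcript (chr16:1201291-1201903), whose nearest listed gene was AC120498.6. Its other peak was promoter-class, 2.69-fold with 2 fragments (chr16:1210354-1210768), and overlapped the start of an annotated transcript. CACNA1I had a pair of peaks in intron 1, 3.63-fold (chr22:39593159-39594028) and 3.64-fold (chr22:39597570-39598082), with 3 fragments each. They lay 3.542 kb apart, the shortest gap between neighbouring peaks of any of the 42 genes. CACNA1G had a promoter-class peak at 3.51-fold with 3 fragments (chr17:50600722-50601056) and a 2-fragment peak at 2.54-fold in intron 9 of 37 (chr17:50585412-50585701).

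The L-type channels carry long-lasting calcium current and couple depolarisation to contraction and gene expression. Their 4 genes held 8 peaks, 4.01 expected (ratio 2.0, interval 0.862 to 3.93), all in CACNA1C and CACNA1D. CACNA1D, 319 kb long, had 4 peaks from 2.54-fold to 4.24-fold. The strongest stacked 4 fragments in intron 3 of 46 (chr3:53587032-53587660), where the small nucleolar RNA gene SNORD63 was listed as nearest gene. Peaks of 4 or more fragments numbered 2 among the 57, this one and the exonic one of CACNA1H. CACNA1C, 727 kb long, also had 4 peaks, all intronic, from 2.54-fold to 3.64-fold, the strongest with 3 fragments (chr12:2068548-2068884). In genes of the same length class, 5.72% had at least as many peaks as CACNA1D and 29.2% at least as many as CACNA1C. CACNA1F, the retinal channel, and CACNA1S, the skeletal muscle channel, had none.

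Of the P/Q-, N- and R-type genes, whose channels trigger transmitter release at nerve endings, only CACNA1E had peaks. This R-type gene had 7, more than any other of the 42 genes and against 1.84 expected from its 490 kb. Among the 1084 genes of 200 to 500 kb, 5 (0.461%) had at least 7, CACNA1E included. Its peaks ranged from 2.54-fold to 2.94-fold. The highest, both at 2.94-fold with 3 fragments, lay upstream of the gene in an intergenic region (chr1:181290737-181291019) and in an intron (chr1:181564950-181565208), and the other 5 had 2 fragments each. Of the 7, 4 came through the Ensembl ID, in introns where an RNA gene or pseudogene was the nearest listed gene. The P/Q-type gene CACNA1A and the N-type gene CACNA1B had none.

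The alpha2delta subunits, extracellular partners of the pore, held 9 peaks with 5.90 expected (ratio 1.53, interval 0.698 to 2.90). CACNA2D1 had 4 from 2.62-fold to 3.51-fold, the strongest in its last intron, 38 of 38 (chr7:81957168-81957447), and a further one of 3 fragments at 3.38-fold in intron 3 (chr7:82302545-82302860). CACNA2D3, the longest gene of the set at 952 kb, had 4 intronic peaks of 2 fragments, 2.54-fold to 2.70-fold, the strongest at chr3:54607393-54607683. CACNA2D4 had 1 at 2.72-fold (chr12:1927231-1927639). The list classed it as downstream, but it lay 8.565 kb upstream of the listed CACNA2D4 start. The beta subunits, cytoplasmic partners of the pore, held 1 peak where 2.80 were expected (ratio 0.357, interval 0.009 to 1.99). It lay in intron 2 of CACNB4 at 2.73-fold (chr2:151997210-151997500).

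**Figure D3:**
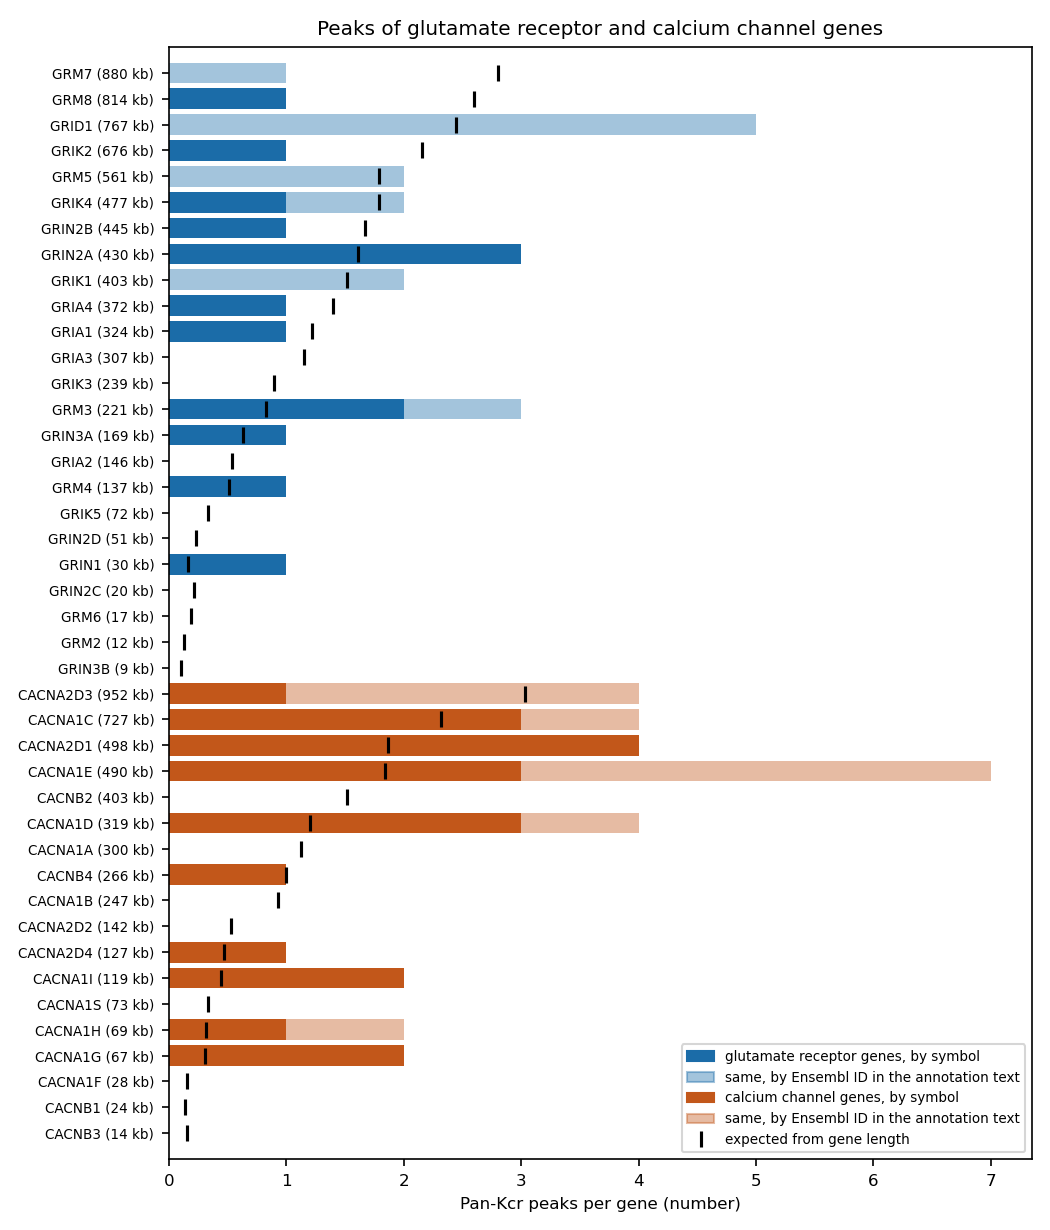
Number of pan-Kcr peaks (horizontal axis) for each of the 42 genes, with gene length in brackets, ordered by length within glutamate receptor genes (upper block) and calcium channel genes (lower block). Full colour marks peaks assigned by gene symbol, pale colour those assigned by Ensembl ID in the annotation text, and the black tick the number expected from length. CACNA1E reaches 7 and GRID1 5, and 17 genes are at 0.

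In the glutamate receptor family, NMDA receptor genes held 5 of the 6 promoter-class peaks. Of the 7 NMDA subunit genes, 4 had peaks, 6 in all with 4.62 expected (ratio 1.30, interval 0.476 to 2.83). GRIN2A and GRIN2B encode glutamate-binding subunits, and GRIN1 encodes the subunit that every NMDA receptor contains. GRIN2A had 3 peaks, all promoter-class with 2 fragments, at 2.73-fold (chr16:9936580-9936849), 2.69-fold (chr16:9970998-9971261) and 2.54-fold (chr16:10120692-10120969). They lay at different annotated transcript starts inside the gene. GRIN2B had 1 promoter-class peak with 3 fragments at 3.39-fold (chr12:13563257-13563920). GRIN1, the shortest of the 42 genes with a peak at 29.6 kb, had 1 promoter-class peak with 2 fragments at 2.73-fold (chr9:137164724-137165028). GRIN3A, which encodes a glycine-binding subunit, had an intronic peak of 3 fragments at 3.39-fold (chr9:101633069-101633841).

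AMPA receptors carry most fast excitatory current. Their 4 genes held 2 peaks with 4.31 expected (ratio 0.464, interval 0.056 to 1.68). GRIA4 had a promoter-class peak 2.57 kb from the nearest annotated start at 2.73-fold (chr11:105845349-105845765), and GRIA1 an intronic peak at 2.54-fold (chr5:153539962-153540400), both with 2 fragments. GRIA2, the subunit whose edited form keeps AMPA receptors from passing calcium, had no peak. Neither did GRIA3.
The 5 kainate receptor genes held 5 peaks with 6.69 expected (ratio 0.748, interval 0.243 to 1.75), all of 2 fragments. GRIK1 had an exonic peak at 2.66-fold (chr21:29589030-29589321) and an intronic one at 2.73-fold (chr21:29808613-29808991). GRIK4 had 2 in introns, 2.67-fold (chr11:120688423-120688711) and 2.54-fold (chr11:120852353-120852659). The peak of GRIK2, at 2.73-fold (chr6:101127815-101128118), was intergenic and 53.1 kb upstream of the nearest listed start. From the nearest RefSeq start of GRIK2 it lay 265.7 kb upstream.
GRID1, which encodes a delta receptor that organises synapses, had 5 intronic peaks of 2 fragments at 2.54-fold to 2.73-fold, the strongest at chr10:85775206-85775587, with 2.45 expected from its 767 kb. At least as many were found in 17.5% of the genes over 500 kb. None of the 5 came through the symbol; the nearest listed genes were AC022028.1, RNA5SP322 and MIR346.

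The 7 metabotropic genes held 8 peaks with 8.84 expected (ratio 0.905, interval 0.391 to 1.78), and none was promoter-class. GRM3, a receptor that lowers cyclic AMP, had 3. The strongest, 3.42-fold with 3 fragments, lay in an intergenic region 10.6 kb upstream of the listed start (chr7:86632890-86633281). Another intergenic peak lay 190.4 kb upstream at 2.72-fold (chr7:86453110-86453470), and an intronic one near the 3′ end at 2.94-fold (chr7:86862901-86863178). GRM5, which couples to phospholipase C, had 2 intronic peaks, 3.39-fold with 3 fragments (chr11:88757343-88757743) and 2.54-fold with 2 (chr11:88646539-88646802). GRM4, GRM7 and GRM8, presynaptic receptors of 1 subgroup, had 1 peak each of 2 fragments. That of GRM4 was exonic at 2.62-fold (chr6:34091523-34091852), that of GRM7 intronic at 2.71-fold (chr3:7188698-7188960) and that of GRM8 intronic at 2.73-fold (chr7:126680515-126680843). GRM7 and GRM8, at 880 and 814 kb, were expected to hold 2.81 and 2.60 peaks.

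No peak was assigned to 17 genes. In the glutamate receptor family these were GRIA2, GRIA3, GRIK3, GRIK5, GRIN2C, GRIN2D, GRIN3B, GRM2 and GRM6, and among calcium channels CACNA1A, CACNA1B, CACNA1F, CACNA1S, CACNA2D2, CACNB1, CACNB2 and CACNB3. Their spans ran from 9.314 to 403 kb with a median of 71.9 kb, against 403 kb for the 25 genes with a peak. From length, 8.65 peaks were expected over all 17, and 35.9 over the 25 genes with a peak. The 17 were grouped by having no peak, so the 8.65 expected does not show a shortfall. All 4 genes of the set on chromosome 19 were among the 17. From length, 1.13 peaks were expected in CACNA1A, 0.330 in GRIK5, 0.235 in GRIN2D and 0.101 in GRIN3B. Peaks on that chromosome were 1.27 times as frequent as in the whole list. CACNA1F and GRIA3 lie on chromosome X, where the rate was 0.313 times that of the list, and GRIA2 on chromosome 4, where it was 0.492 times. The part of these chromosome rates in the absences was not tested. A peak at 3.64-fold with 3 fragments lay inside CACNB2 (chr10:18531539-18531822), but the list placed it at the promoter of AL450384.1, so by the rule it did not count.

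The 57 peaks were no stronger than the rest of the list. Median fold enrichment was 2.71 (2.54 to 4.24) in these peaks and 2.73 (2.52 to 6.57) in the 9984 others. At the summit 42 of them stacked 2 fragments, 13 stacked 3 and 2 stacked 4. Peaks of 3 or more fragments made up 26.3% (interval 15.5 to 39.7%), against 25.8% of the other peaks. Among the 15 such peaks, 10 belonged to calcium channel genes and 5 to glutamate receptor genes, which is 32.3% (16.7 to 51.4%) of the calcium channel peaks and 19.2% (6.55 to 39.4%) of the glutamate receptor peaks, intervals that overlap. The smallest q-value among the 57 was 0.473, and 45 had a q-value of 1. Counts of 2 and 3 fragments do not separate peaks from each other beyond counting error.

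**Figure D4:**
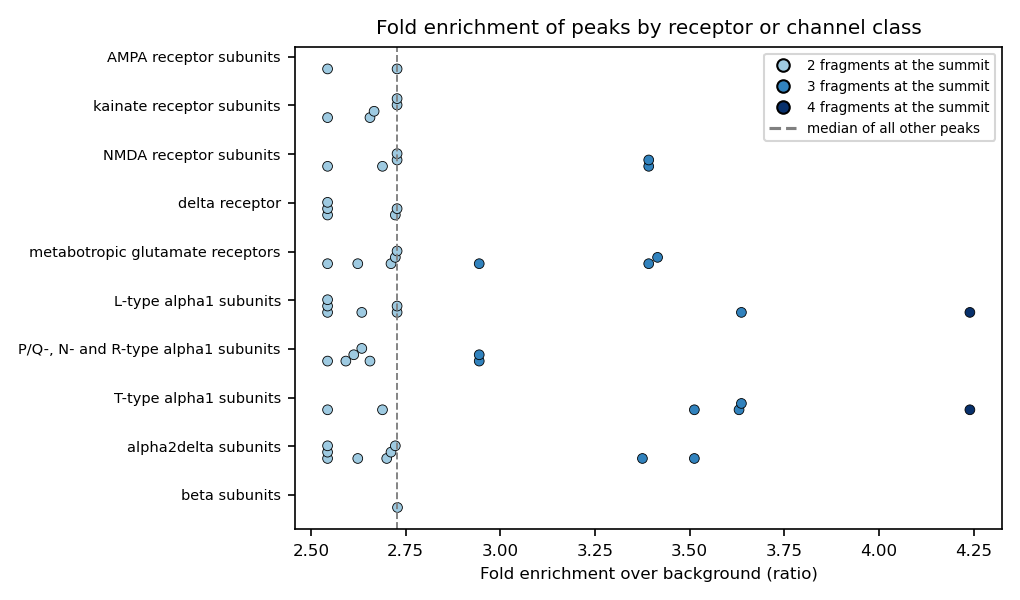
Fold enrichment over background (horizontal axis, ratio) of the 57 peaks by receptor or channel class. Each point is 1 peak, shaded by the ChIP fragments at its summit; vertical shifts only separate points, and the dashed line is the median of all other peaks, 2.73. The points at 4.24-fold are the exonic peak of CACNA1H and an intronic peak of CACNA1D, and delta, kainate, AMPA and beta subunit peaks all stay at 2.73-fold or under.

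By annotated class most of the peaks were intronic. Introns held 38 of the 57 (66.7%, interval 52.9 to 78.6%) and promoters 9 (15.8%, interval 7.48 to 27.9%). In other protein-coding genes over 100 kb these shares were 75.3% and 12.1%, and in all other protein-coding genes 56.2% and 23.1%, all within the intervals of the 57. Of the remaining peaks 5 were intergenic, 3 exonic, 1 in a 5′ UTR and 1 downstream by class. The 5′ UTR peak, counted for CACNA1D, lay past that gene's 3′ end, at 103% of its length. The downstream-class peak, counted for CACNA2D4, lay upstream of that gene's 5′ end.

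The promoter-class peaks lay away from RefSeq starts where the 2 could be compared. GRIN2A, GRIN2B, GRIA4 and CACNA1D, the genes whose upstream bases are printed above, had 6 such peaks, and 0 of them lay within 3 kb of a RefSeq start (interval 0 to 45.9%). They lay 61.2 to 417 kb away, with a median of 240 kb, beside starts of other annotated transcripts inside the gene. Of 993 promoter-class peaks of other protein-coding genes, 39.0% (35.9 to 42.1%) lay within 3 kb of a RefSeq start, and of 283 in genes over 100 kb 30.0% (24.8 to 35.7%). The last share lies inside the interval of the 6, so a difference from other long genes was not detectable. GRIN2A illustrates the distances: its 3 peaks lay 61.2, 211 and 245 kb downstream of the start whose upstream sequence held 9 CpG.
With peaks of any assignment included, 0 of the 34 genes with a RefSeq start had a peak within 3 kb of it, an exact interval of 0 to 10.3% (3 counts of 34 are 8.82%), against 3.07% of 15809 other genes. The nearest was the intron 1 peak of CACNA2D1, 9.94 kb away, followed by the upstream peak of GRM3 at 10.8 kb and the first peak of CACNA1C at 15.7 kb. For GRIN1, CACNA1G and CACNA1H no promoter sequence is shown.

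Inside the genes the peaks were scattered. Of 43 peaks within the span of a gene of known strand, 18 (41.9%, interval 27.0 to 57.9%) lay in its 5′ part before the midpoint, against 49.8% in other genes over 100 kb. The stretch from the 5′ end to 10% of gene length held 1 of the 43 (2.33%, interval 0.059 to 12.3%), that of CACNA2D1, against 10.4% in other genes over 100 kb, which lies inside the interval.

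**Figure D5:**
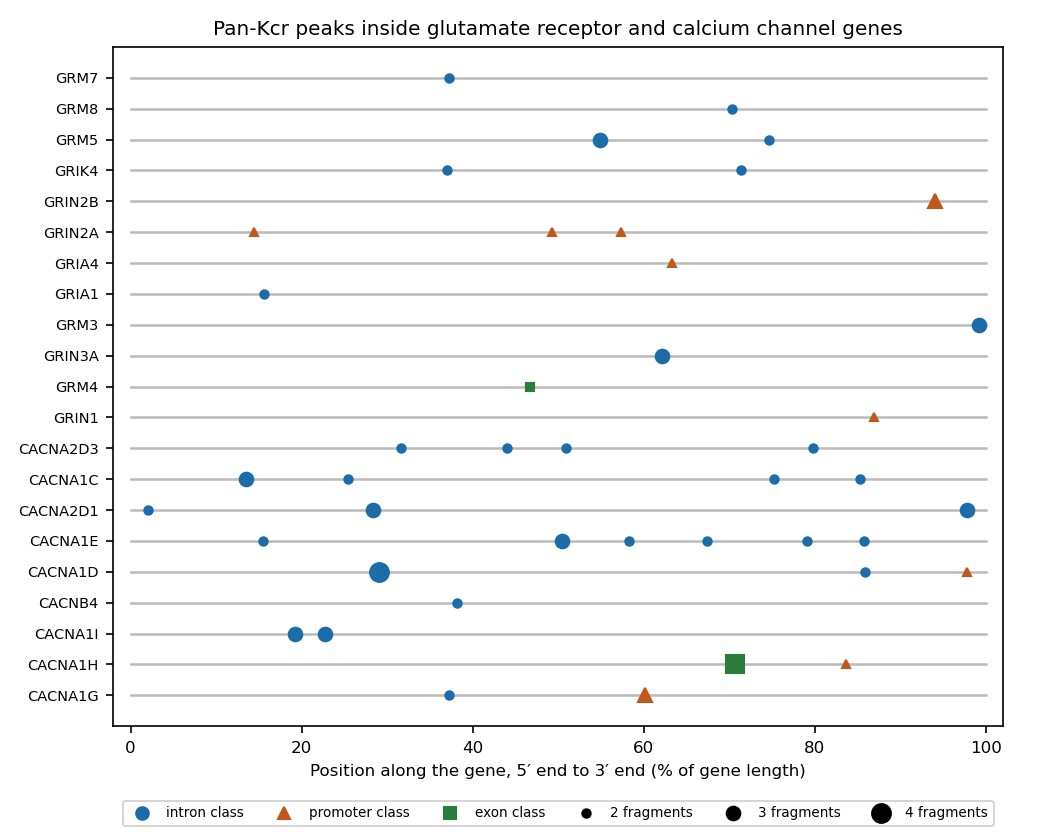
Position of pan-Kcr peaks along 21 of the 42 genes, from the 5′ end to the 3′ end (% of gene length, horizontal axis), 1 line per gene. Circles are intron-class, triangles promoter-class and squares exon-class peaks, and symbol size gives the fragments at the summit; peaks outside the gene, and GRID1 and GRIK1, whose strand was not taken, are left out. Triangles sit in the middle or toward the 3′ end of the genes, except 1 of GRIN2A, and the only peak in the first 10% of a gene is that of CACNA2D1.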

How the data were processed

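Pan-Kcr ChIP-seq of crotonate-treated T98G cells (1 ChIP and 1 input library, grouped by their labels) was deposited as 1 peak list. Per the file headers it gives, for each peak, the fold enrichment (a ratio over background), the p-value and q-value on the −log10 scale, the annotation class and the nearest gene, all made by the authors. The aligner, the peak caller with its threshold, and the build were not given in the sources used here. Coordinates of peaks are those of the list. Of 4537 transcripts with a matched symbol, 98.1% lay within the GRCh38.p14 span of that gene with 5 kb allowed, and RefSeq spans of that build gave lengths, distances and names.

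The 42 genes and all lists were chosen with earlier results of these data known. Every gene with a peak was named with its peaks (for over 3, the range and the strongest), and those without were named once by family. Ensembl IDs of 21 genes were paired with a symbol in the list. Those of GRID1, GRM5, GRM7 and GRIK1 were placed by position, because all peaks naming the ID lay in 1 protein-coding gene. For 1490 IDs with a listed symbol this placement gave that symbol in 97.5%. Expected peaks came from the peaks per Mb of all other protein-coding genes in 6 length classes (bounds 20, 50, 100, 200 and 500 kb). Fragments at the summit were recovered from fold and p assuming a Poisson background (largest error in −log10 p 6.52e-05), tested on simulated data. No test was possible with 1 library. Alternatives were a higher fold or fragment minimum, assignment by position, symbol only or without intergenic peaks, promoter windows of 1 and 5 kb, merging within 1 kb, length deciles, chromosome rates and leaving out the gene with most peaks. Control cells, reads and coverage were not analysed here, and the result of 1 further gene list is not reported here. Intervals came from scipy 1.17.1, tables from pandas 2.3.3 with numpy 2.4.6, and plots from matplotlib 3.10.9, all under Python 3.11.15.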

Additional observations from a re-analysis of the deposited data

How the results depend on the processing

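The ratio of peaks to those expected from length ran from 1.03 to 1.28 for the 42 genes over 10 alternatives, from 1.35 to 2.14 for calcium channel genes, with an interval that included 1 in 2 of the 10 (a minimum fold, and without CACNA1E), and from 0.682 to 0.969 for glutamate receptor genes. A minimum fold equal to the list's median left 25 peaks of these genes, with a median of 2.94-fold. Keeping peaks of 3 or more fragments left 15 peaks with a median of 3.42-fold, 11 genes with a peak and 2 with a promoter-class peak, as fewer peaks bring. With the gene symbol alone, an alternative chosen after seeing the data, 35 peaks remained, since 22 came through an Ensembl ID. With the Ensembl IDs that the list itself pairs with a symbol, also chosen after seeing the data, glutamate receptor peaks numbered 16 (a ratio of 0.682), against 26 when IDs placed by position were added, while calcium channel peaks stayed at 31. The other alternatives moved none of the counts over all 42 genes or over a family by over 1.5 times. Of 175 counts of single genes under 7 alternatives, 54 moved by more, 21 of them under the fragment minimum. The T-type ratio ran from 3.94 to 14.5 over the 5 alternatives run for it, with every interval above 1. These alternatives reuse the same 6 peaks or a part of them. The class was singled out among 10 by its ratio, so they do not test that choice. GRID1 has 0 peaks by symbol alone. No paired analysis was possible because the list rests on 1 ChIP library. At 2 to 4 fragments, depth limits what any 1 peak shows.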

Other observations

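The partners of these receptors and channels, and like ion channel families, were counted in the same way, as a description with no test. Of 40 genes of the glutamate synapse (transporters, glutamine cycle enzymes, scaffolds and kinases), 11 had a peak with 13.8 expected from length, and their 23 peaks were 0.730 times the number expected (interval 0.463 to 1.10). The only promoter-class peak was at SHANK3, a postsynaptic scaffold, at 2.73-fold with 2 fragments. The 8 CACNG genes encode calcium channel gamma subunits and AMPA receptor auxiliary subunits. Of these, 4 had a peak (CACNG2, CACNG3, CACNG4 and CACNG5) with 1.81 expected from length. They held 5 peaks in all, 2.37 times the number expected (0.771 to 5.54).

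Channels that release calcium from internal stores, their store sensors and store-operated channels together gave a ratio near that of the voltage-gated calcium channels. Of the store-operated channels, ORAI2 and ORAI3 were counted and had no peak. ORAI1 had no match in the reference gene table and was left out. Of 10 such genes 8 had a peak with 4.70 expected from length, and the 18 peaks were 1.79 times those expected (1.06 to 2.82). RYR2, the ryanodine receptor of heart muscle, had a promoter-class peak at 3.62-fold with 3 fragments. Voltage-gated potassium and sodium channel genes stood on the same side of 1, whereas the ionotropic glutamate receptor genes had a ratio of 0.997 (0.591 to 1.58). The potassium channel genes (14 of 40 with a peak, 11.2 expected from length) had a ratio of 1.49 (1.01 to 2.12). For the sodium channel genes (5 of 13 with a peak, 3.96 expected) it was 1.27 (0.511 to 2.62). The promoter-class peaks of the potassium and sodium channel genes were at KCNQ1 and at SCN4A. A ratio above 1 was therefore not particular to calcium channels among the families reported, and the intervals of these families overlap that of the calcium channels.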
